A study of Mus musculus with 19 samples.

Results

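Tuft cells, also called brush cells or solitary chemosensory cells, are rare epithelial cells that sense luminal signals through taste-type receptors and release acetylcholine, cysteinyl leukotrienes and IL-25. In the intestine, airway and nose they form under the POU-domain transcription factor Pou2f3, and mice that lack Pou2f3 lack these cells. The 8 genes described here encode transcription factors that have been tied to tuft cells in one or more tissues: Pou2f3, Spib, Gfi1b, Hmx2, Hmx3, Ascl2, Sox9 and St18. They were taken by symbol from the normalized series table, where all 8 were found among 26221 rows, and their raw counts were then analysed across all 19 libraries.

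The study asked how cholinergic cells of the nose differ from other nasal epithelium, by bulk RNA sequencing of sorted cells. All groups came from naive ChAT(BAC)-eGFP mice, which carry the transgene Tg(RP23-268L19-EGFP)2Mik on a B6.Cg background; a bacterial artificial chromosome with Chat regulatory sequence drives enhanced green fluorescent protein (eGFP), so the eGFP- cells come from transgenic mice as well. The groups were CD45- EpCAM+ eGFP+ cells of low forward and side scatter (FSClow, 9 libraries), CD45- EpCAM+ eGFP+ cells of high scatter (FSChi, 5 libraries), and CD45- EpCAM+ eGFP- cells (EpCAM, 5 libraries). The tissue was digested with dispase and papain and dead cells were excluded with propidium iodide. The labels give no age and do not tie libraries to animals; p-values therefore reflect only how these libraries vary, which may be technical variation. The EpCAM group mixes all remaining nasal epithelial types, and the eGFP gates select cells by activity of the Chat transgene.

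Library totals ran from 1348428 to 7477695 counts, and 13340 genes passed the low-count filter, all 8 factors among them. The gates matched their labels in the tuft genes: Chat averaged 543 CPM (counts scaled to a common library total) in FSClow, 301 in FSChi and 2.14 in EpCAM, and the 24 listed tuft effector genes summed to 16479.7 to 20278, 13397 to 22150.3 and 224 to 293 CPM. FSChi libraries also held RNA of other nasal cells, given below beside the comparison of the 2 gates. A correlation of each count column with the single-library files showed that 14 of 19 columns best matched their own file; 3 FSChi columns (3, 4 and 5) and EpCAM columns 1 and 2 best matched another file of the same group, and the file of FSChi library 3 was nearly empty. The count table therefore carries the results, and values without those libraries are given where they change a call. In bulk RNA, fewer cells of a type and less RNA per cell cannot be told apart.

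Upstream sequence is shown for the 4 factors whose RefSeq promoter window (GRCm38.p6, the mm10 assembly) lies at least in part outside the gene's own annotated span, because all of them were far higher in eGFP+ than in eGFP- cells. Windows were found for 5 of the 8 factors, and Gfi1b, Spib, Ascl2 and Hmx2 are printed 5′ to 3′ on the strand of the gene, ending next to the gene. Capitals mark matches, on either strand, to the TATA box TATAAA, the CCAAT box CCAAT, or the octamer core TGCAAAT, which is the recognition element of POU factors of the Pou2 class and lies within the full octamer ATGCAAAT.
Gfi1b: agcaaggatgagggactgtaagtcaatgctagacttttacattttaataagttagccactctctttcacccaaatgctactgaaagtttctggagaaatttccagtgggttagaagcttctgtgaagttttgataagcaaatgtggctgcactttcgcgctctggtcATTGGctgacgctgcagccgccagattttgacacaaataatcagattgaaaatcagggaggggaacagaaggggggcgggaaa
Spib: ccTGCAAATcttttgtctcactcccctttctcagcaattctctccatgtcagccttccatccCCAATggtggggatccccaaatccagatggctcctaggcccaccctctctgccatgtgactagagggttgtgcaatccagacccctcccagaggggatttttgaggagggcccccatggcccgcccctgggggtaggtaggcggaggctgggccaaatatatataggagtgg
Ascl2: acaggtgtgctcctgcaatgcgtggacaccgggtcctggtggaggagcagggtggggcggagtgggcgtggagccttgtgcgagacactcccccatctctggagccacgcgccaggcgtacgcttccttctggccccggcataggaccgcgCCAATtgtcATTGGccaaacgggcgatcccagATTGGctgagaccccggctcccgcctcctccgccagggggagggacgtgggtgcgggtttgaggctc
Hmx2: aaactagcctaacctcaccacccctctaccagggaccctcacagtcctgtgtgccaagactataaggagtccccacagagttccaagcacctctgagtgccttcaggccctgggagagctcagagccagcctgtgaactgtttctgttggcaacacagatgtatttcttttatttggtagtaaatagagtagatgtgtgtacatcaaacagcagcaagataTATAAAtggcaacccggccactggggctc

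These stretches are chr2:28621983-28622232 (minus strand) for Gfi1b, chr7:44532088-44532321 (minus strand) for Spib, chr7:142969265-142969514 (minus strand) for Ascl2 and chr7:131548507-131548756 (plus strand) for Hmx2. Spib holds TGCAAAT 248 bases upstream of the start site next to its full window, 44532072 to 44532321. That site lies inside the annotated gene span (44525995 to 44532087), so only the 234 bases outside the span are printed. TGCAAAT was found in 3.565% of 32851 mouse promoter windows of 250 bases, counted without chr18. The overlapping part ATGCAAA and the full octamer, present in 4.125% and 1.601% of windows, were found in none of the windows of these factors. CCAAT occurred in Gfi1b, Spib, Ascl2 (with 3 matches) and a second Hmx2 window that lies inside the gene and is not printed, against 33.85% of the same mouse windows. Hmx2 holds TATAAA 29 bases upstream, as do 12.37% of windows somewhere in their 250 bases. These matches describe the letters and are not evidence of binding. Hmx3 and Hmx2 are neighbours on chromosome 7, separated by 2729 bases (Hmx3 at 131541532 to 131546027, Hmx2 at 131548757 to 131558014). Gfi1b on chromosome 2 overlaps the predicted gene Gm52548, and since no strand setting is given for the counting, reads of both cannot be told apart there.

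All 8 factors were higher in both eGFP+ gates than in eGFP- epithelium, with no overlap between libraries. Their log2 fold changes ran from 3.45 (St18) to 10.52 (Hmx3) in FSClow and from 3.33 (Sox9) to 9.28 (Hmx3) in FSChi, with medians of 6.60 and 5.72 where the medians of all tested genes were 0.05 and -0.02. By comparison, 22% of all tested genes were called higher in FSClow than in EpCAM and 13.5% in FSChi than in EpCAM (edgeR quasi-likelihood F test, Benjamini-Hochberg adjusted p under 0.05 over all 13340 genes), and 23.1% and 12.2% were called lower. In 10.7% and 10.2% of genes every eGFP+ library lay above every EpCAM library. Both comparisons use the same EpCAM libraries. With counts scaled by relative log expression (RLE) in place of trimmed mean of M values (TMM), the share of higher genes among those called in FSClow moved from 48.7% to 38.2% and the median of all genes from 0.05 to -0.14, which is small against the fold changes of the factors.

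**Figure D1:**
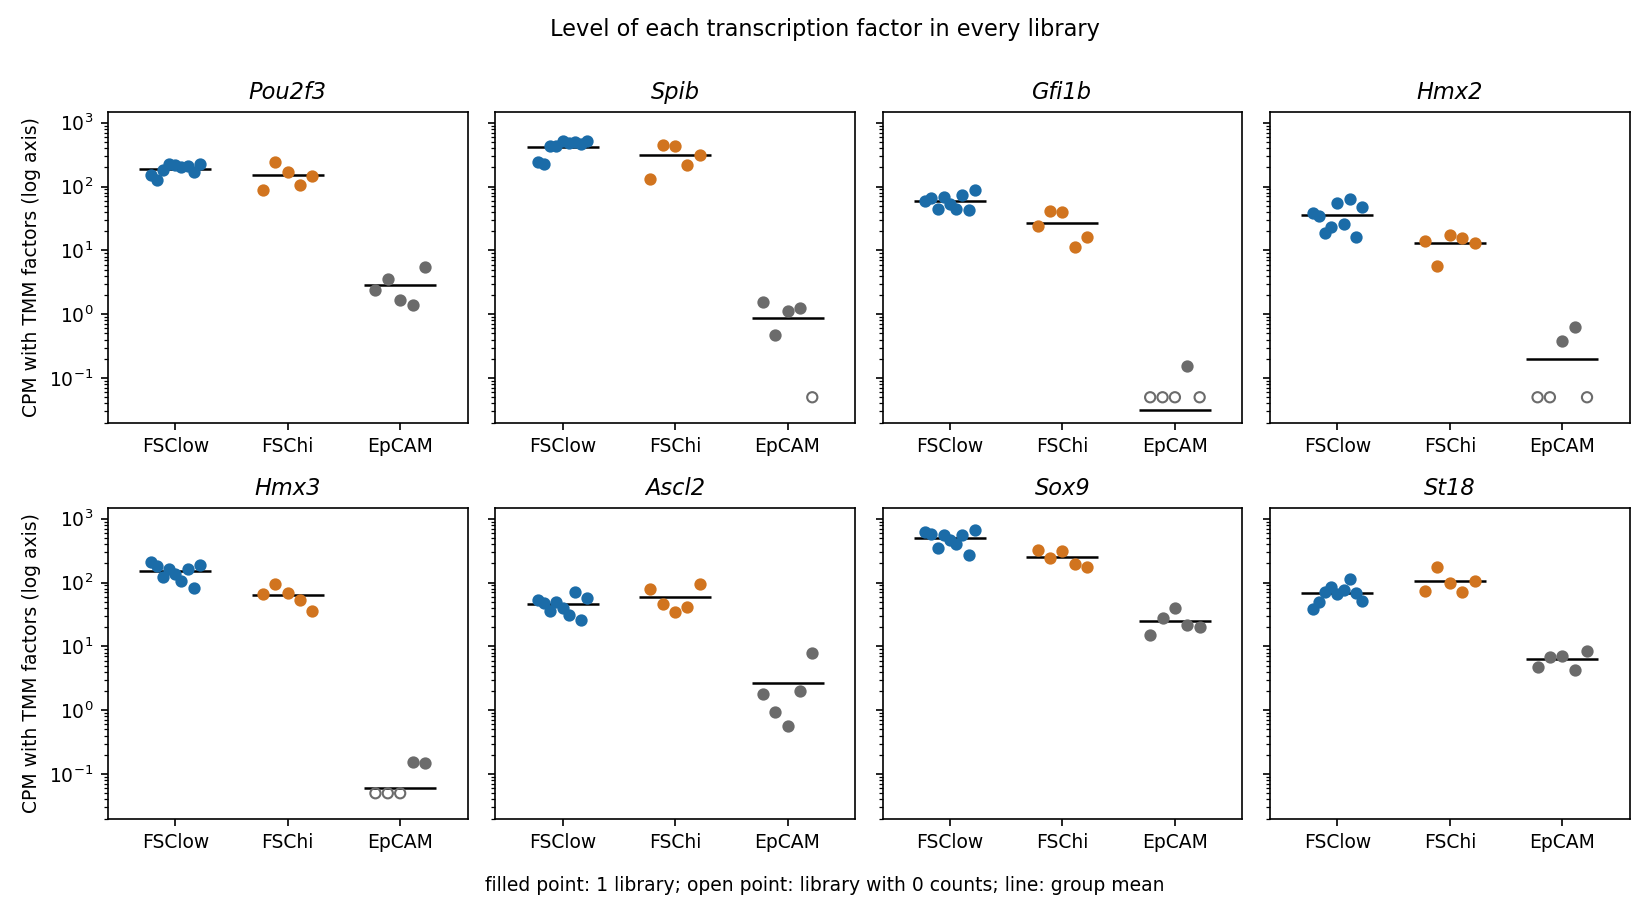
CPM with TMM factors (log axis) of the 8 transcription factors in each of 9 FSClow, 5 FSChi and 5 EpCAM libraries. Points are libraries, open points at the bottom are libraries with 0 counts and lines are group means; every eGFP+ library lies above every EpCAM library for every factor.

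Pou2f3, the octamer-binding factor that specifies the lineage, measured 128 CPM in the lowest, 205 in the median and 227 in the highest FSClow library. The 5 FSChi libraries held 88.2, 240.2, 170.1, 108 and 144 CPM and the 5 EpCAM libraries 2.36, 3.56, 1.68, 1.40 and 5.57 CPM. The FSChi and FSClow ranges overlapped, and all EpCAM libraries were well below both, with EpCAM library 5 the highest of its group. The log2 fold change against EpCAM was 6.01 ± 0.35 (SE) in FSClow (edgeR adjusted p = 3.71e-12) and 5.66 ± 0.36 (SE) in FSChi (edgeR adjusted p = 2.58e-11), or 64.5-fold and 50.6-fold. Between the gates it was -0.35 ± 0.25 (SE) in FSChi against FSClow, with an adjusted p of 0.335 in edgeR and a 95% interval of -0.85 to 0.14.

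Spib and Gfi1b are known best from blood cells: Spib is an ETS-domain factor of B cells, plasmacytoid dendritic cells and intestinal M cells, and Gfi1b is a zinc-finger repressor needed for red cell and platelet formation. Spib measured 229.7 CPM in the lowest, 458 in the median and 524 in the highest FSClow library, and 129.8, 447, 434, 214 and 314 CPM in FSChi. In EpCAM it had 24 counts in all, or 1.57, 0.475, 1.12, 1.25 and 0 CPM, so the groups stood far apart and the 2 gates overlapped. The log2 fold change of Spib was 8.87 ± 0.53 (SE) in FSClow (edgeR adjusted p = 4.98e-12) and 8.41 ± 0.53 (SE) in FSChi (edgeR adjusted p = 2.94e-11), and the gates did not differ beyond the threshold (-0.46 ± 0.33 (SE), edgeR adjusted p = 0.329).

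Gfi1b measured 43.0 CPM in the lowest, 60.0 in the median and 88.7 in the highest FSClow library. FSChi libraries held 24.5, 41.8, 39.8, 11.4 and 16.3 CPM, all below the lowest FSClow library. In EpCAM it had 1 count in 5 libraries, in library 4 (0, 0, 0, 0.156 and 0 CPM). Against that single count, the ratio of summed counts per library total was 1615 (95% counting interval 289 to 63835) for FSClow and 705 (95% counting interval 126 to 27888) for FSChi; these intervals cover counting error only. The fitted log2 fold changes of 9.82 ± 0.56 (SE) (edgeR adjusted p = 2.35e-12) and 8.63 ± 0.58 (SE) (edgeR adjusted p = 7.04e-11) depend on how edgeR treats a group near 0, and were 10.85 and 9.68 without EpCAM library 4. Between the gates, Gfi1b fell by 1.19 ± 0.29 (SE) on the log2 scale in FSChi, 2.28-fold (edgeR adjusted p = 0.00374).

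Most B cell genes and the erythroid regulators were near 0 in the eGFP+ libraries, whereas globin and leukocyte list sums were not in every library. Of the B cell and plasmacytoid dendritic cell list, Cd79a, Ms4a1, Pax5 and Siglech averaged at most 0.25 CPM in FSClow and at most 0.134 CPM in FSChi, while Cd79b, a B cell receptor chain, averaged 54.2 and 34.8 CPM against 0.238 in EpCAM and was called higher in both gates (log2 fold changes 7.59 and 6.93, edgeR adjusted p = 1.87e-11 and 2.71e-10). The 8 genes of that list summed to 257 to 374 CPM in FSClow, 115 to 214 in FSChi and 55.6 to 87.1 in EpCAM, most of it from Tcf4, an E protein gene also expressed in epithelium. Ptprc, which encodes the CD45 used to gate leukocytes out, averaged 12.5 CPM in FSClow, 6.90 in FSChi and 0 in EpCAM, whereas Cd3e was at 0 in all 3 groups. The 9 leukocyte genes summed to 11.5 to 69.3 CPM in FSClow, 28.7 to 633 in FSChi and 479 to 3449 in EpCAM. Most of the EpCAM sums and of the highest FSChi sum came from Lyz2. Lyz2 averaged 6.73 CPM in FSClow, 160 in FSChi and 1718 in EpCAM, and was at 594 CPM in FSChi library 4. Cd14 averaged 0.302 CPM in FSClow, 17.9 in FSChi and 85.2 in EpCAM, and Cd68 4.29, 4.96 and 4.19 CPM. Csf1r, Itgam, Fcer1g and Tyrobp averaged at most 0.976 CPM in any group. Gata1, Gata2 and Klf1, regulators of the erythroid and megakaryocyte lineages where Gfi1b acts, averaged 0.149, 0.517 and 0.228 CPM in FSClow and 0, 0.505 and 0.455 in FSChi. The whole erythroid and megakaryocyte list, with its globin genes, summed to 3.62 to 220.3 CPM in FSClow, 9.21 to 952 in FSChi and 7.46 to 335 in EpCAM. The globin gene Hba-a1 averaged 29.9, 120.3 and 27.1 CPM, with the highest value in FSChi library 1. The part of such RNA in the Gfi1b and Spib levels was not tested.

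Hmx2 and Hmx3 are homeobox factors known for inner ear and hypothalamus development, encoded side by side on chromosome 7. Hmx3 showed the highest fold change of the 8 against eGFP- epithelium in both gates. It measured 82.9 CPM in the lowest, 162 in the median and 213 in the highest FSClow library, 67.0, 94.0, 67.9, 54.1 and 36.5 CPM in FSChi, and 2 counts in all of EpCAM (0, 0, 0, 0.156 and 0.151 CPM). FSChi library 2 reached into the FSClow range and the other 4 lay below it. The summed count ratio against EpCAM was 1950.2 (95% counting interval 539.5 to 16109) in FSClow and 819.5 (95% counting interval 226 to 6774) in FSChi, and the fitted log2 fold changes were 10.52 ± 0.47 (SE) (edgeR adjusted p = 6.92e-14) and 9.28 ± 0.48 (SE) (edgeR adjusted p = 9.12e-13). In FSChi against FSClow, Hmx3 fell by 1.24 ± 0.24 (SE) on the log2 scale, 2.37-fold (edgeR adjusted p = 0.000538).

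Hmx2 measured 16.3 CPM in the lowest, 34.8 in the median and 63.2 in the highest FSClow library, and 13.9, 5.62, 17.5, 15.5 and 13.1 CPM in FSChi. FSChi library 2 was the lowest with 7 counts, and only FSChi library 3 reached into the FSClow range. EpCAM had 6 counts in libraries 3 and 4 and none in the others (0, 0, 0.374, 0.623 and 0 CPM). The log2 fold change against EpCAM was 7.19 ± 0.60 (SE) in FSClow (edgeR adjusted p = 9.38e-10) and 5.79 ± 0.61 (SE) in FSChi (edgeR adjusted p = 1.36e-07), and 8.08 and 6.70 without EpCAM library 4. In FSChi against FSClow it fell by 1.41 ± 0.38 (SE), 2.65-fold (edgeR adjusted p = 0.00891). The related gene Hmx1 had 0 counts in FSClow and 0 in FSChi.

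Ascl2, a basic helix-loop-helix factor and Wnt target known from intestinal stem cells, measured 26.2 CPM in the lowest, 48.5 in the median and 72.1 in the highest FSClow library. FSChi libraries held 80.2, 45.8, 34.4, 41.1 and 94.6 CPM, spread across the FSClow range and beyond its top in libraries 1 and 5. EpCAM libraries held 1.77, 0.951, 0.562, 2.03 and 7.98 CPM, and library 5 gave 53 of the 82 EpCAM counts. The log2 fold change was 4.04 ± 0.47 (SE) in FSClow (edgeR adjusted p = 1.85e-07) and 4.41 ± 0.50 (SE) in FSChi (edgeR adjusted p = 3.85e-07), rising to 5.05 and 5.42 without EpCAM library 5. The gates differed by 0.37 ± 0.37 (SE) (edgeR adjusted p = 0.505), and their mean levels of 59.2 ± 26.5 CPM (SD, n = 5) and 45.9 ± 14.4 CPM (SD, n = 9) differed by less than the FSChi SD.

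Sox9, an HMG-box factor known from cartilage, gland progenitors and intestinal crypts, had the highest TPM of the 8 in eGFP- epithelium. It measured 270.3 CPM in the lowest, 554 in the median and 673 in the highest FSClow library, 323, 242, 313, 195 and 176 CPM in FSChi and 14.9, 27.6, 39.9, 21.8 and 19.9 CPM in EpCAM. FSChi libraries 1 and 3 reached into the FSClow range and the other 3 lay below it, while EpCAM stayed clear of both. The log2 fold change against EpCAM was 4.32 ± 0.30 (SE) in FSClow (edgeR adjusted p = 4.21e-11) and 3.33 ± 0.30 (SE) in FSChi (edgeR adjusted p = 6.75e-09). In FSChi against FSClow it fell by 0.99 ± 0.25 (SE), 1.99-fold (edgeR adjusted p = 0.00441). The cartilage genes Col2a1, Acan, Comp and Matn1 averaged 0.342, 0.0379, 0.765 and 0 CPM in FSClow. They averaged 0.347, 0.0269, 0.155 and 0 CPM in FSChi and 4.19, 0.226, 0.337 and 0 CPM in EpCAM. With stromal genes such as Dcn, the 8 genes of this list summed to 1.26 to 13.4 CPM in FSClow, 1.61 to 156 in FSChi and 95.6 to 170 in EpCAM. The gland factor Sox10 averaged 0.0336, 0.333 and 2.24 CPM in the same order.

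St18, a zinc-finger repressor of the Myt1 family known from pancreatic endocrine cells, had the smallest fold change in FSClow. It measured 39.2 CPM in the lowest, 69.2 in the median and 115 in the highest FSClow library, 74.8, 178, 99.6, 72.0 and 108 CPM in FSChi and 4.71, 6.89, 7.11, 4.21 and 8.59 CPM in EpCAM. All 5 FSChi libraries lay above the FSClow median, and the ranges overlapped. The log2 fold change against EpCAM was 3.45 ± 0.30 (SE) in FSClow (edgeR adjusted p = 1.6e-09) and 4.06 ± 0.32 (SE) in FSChi (edgeR adjusted p = 1.03e-09). In FSChi against FSClow it was 0.61 ± 0.24 (SE) with an adjusted p of 0.0707 in edgeR, not past the threshold; with RLE scaling it was 0.67 (edgeR adjusted p = 0.0424), and with DESeq2 0.67 (DESeq2 adjusted p = 0.0375).

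**Figure D2:**
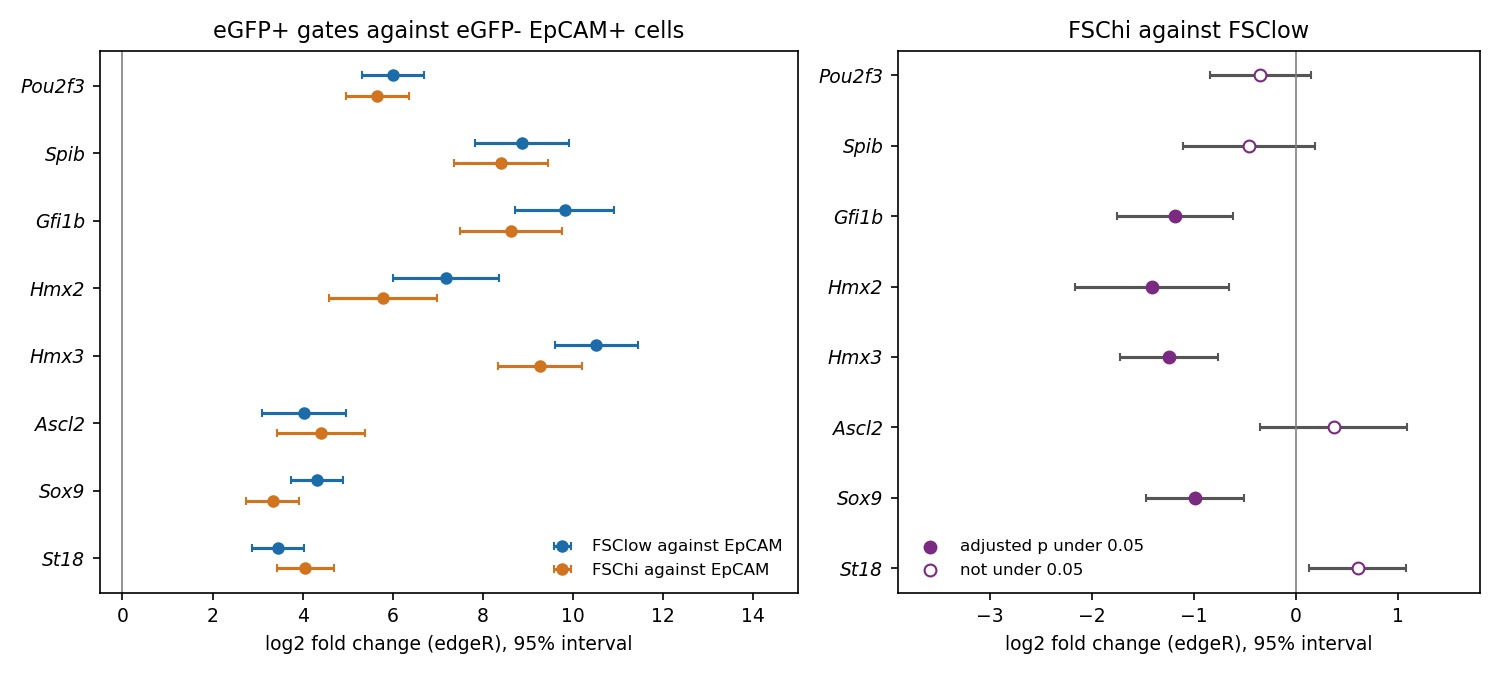
Log2 fold changes with 95% intervals from edgeR for the 8 factors. Left, FSClow and FSChi each against EpCAM, with all values above 3; right, FSChi against FSClow, where filled points (Gfi1b, Hmx2, Hmx3 and Sox9, all below 0) have an adjusted p under 0.05 and open points do not.

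Between the 2 eGFP+ gates the factors split. Gfi1b, Hmx2, Hmx3 and Sox9 were lower in FSChi, by 1.99- to 2.65-fold, Pou2f3, Spib and Ascl2 did not pass the test, and St18 changed side of the threshold with the scaling. Across all tested genes 9.3% were called lower and 15.5% higher in FSChi, so 4 of 8 called lower stands beside a background of 9.3%. Gfi1b alone had all FSChi libraries below all FSClow libraries, a pattern of 2.55% of tested genes. The median log2 difference of the 8 was -0.73, against -0.01 over all genes. The 4 calls held without any 1 of the 19 libraries, and all 4 were lost when only the libraries whose column matched its own file were kept (2 FSChi libraries, 9 FSClow, 3 EpCAM), with log2 differences from -1.75 (Hmx2) to -0.78 (Sox9).

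RNA of other nasal cell types moved with this comparison. The 7 olfactory neuron genes summed to 16.8 to 89.4 CPM in FSClow, 20.1 to 2459.8 in FSChi and 2932 to 4845 in EpCAM, and all 7 were called higher in FSChi than in FSClow. The defining gene Omp averaged 13.3, 1005 and 2172 CPM in the same order. Gland genes without Krt18, a keratin gene of many epithelial cells that was higher in both eGFP+ gates, summed to 25.2 to 331, 451 to 13321 and 5246 to 17312 CPM. With Krt18 these sums were 1564 to 5169, 3821 to 15425 and 5803 to 18096 CPM. Basal cell genes summed to 28.1 to 127, 45.0 to 1721 and 1216 to 3650.2 CPM. FSChi library 2 held only 20.1 CPM of the olfactory neuron genes, inside the FSClow range; its Hmx3 (94.0 CPM) was also inside the FSClow range, and its Gfi1b (41.8 CPM), Sox9 (242 CPM) and Hmx2 (5.62 CPM) were below it. The listed ciliated cell genes of FSChi library 2 summed to 207 CPM, above their FSClow range of 0.403 to 37.2 CPM. The part of other cells in the lower factor levels was not tested.

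A ratio of 2 factors within a library does not depend on library scaling. Such ratios were an alternative added after the data were seen; 23 were tested, to Pou2f3, Chat and Trpm5, and p-values were adjusted over the 23 by Benjamini-Hochberg. Relative to Pou2f3, St18 was higher in all 5 FSChi libraries than in all 9 FSClow libraries, with a log2 ratio of -0.49 ± 0.20 (SD, n = 5) against -1.50 ± 0.38 (SD, n = 9), a difference of 1.01 (two-sided exact permutation p = 0.0004995, the smallest that 2002 labelings can give, adjusted p = 0.00383). Gfi1b relative to Pou2f3 had a log2 difference of -0.89 (exact permutation p = 0.00749, adjusted p = 0.0306), and the differences of Hmx3 and Hmx2, at -0.84 and -0.996, did not pass after adjustment (exact permutation p = 0.0205 and 0.0495, adjusted p = 0.0673 and 0.142). The ratio of Spib to Pou2f3 differed by less than its SD in either gate (difference -0.13, exact permutation p = 0.386, adjusted p = 0.422), and Sox9 and Ascl2 did not separate (-0.57 and 0.73, exact permutation p = 0.108 and 0.0919, adjusted p = 0.207 and 0.192).

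Against effector genes of tuft cells the picture was uneven. Relative to Chat, which was itself lower in FSChi on average, Gfi1b, Hmx2, Hmx3 and Sox9 did not pass 0.05 between the gates (log2 differences -0.40, -0.51, -0.35 and -0.08, exact permutation p = 0.288, 0.244, 0.363 and 0.81, adjusted p of at least 0.351), while St18, Ascl2 and Pou2f3 were higher in FSChi by 1.5, 1.22 and 0.49 (exact permutation p = 0.0004995, 0.003 and 0.00799, adjusted p = 0.00383, 0.0172 and 0.0306). Relative to Trpm5, the cation channel of taste transduction, St18 was higher by 1.18 (exact permutation p = 0.0004995, adjusted p = 0.00383) and each of the other 7 factors had an exact permutation p of at least 0.0849 and an adjusted p of at least 0.192. St18 was the factor whose ratio passed after adjustment with each of the 3 references.

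**Figure D3:**
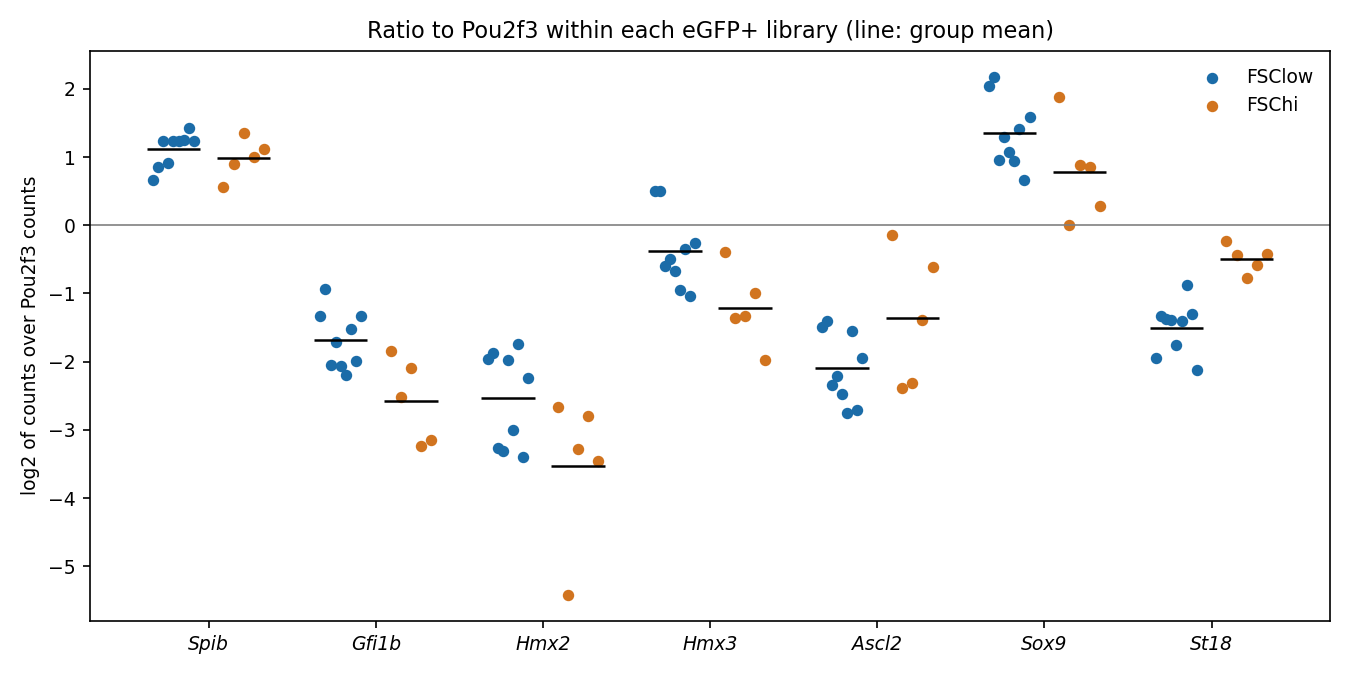
Log2 ratio of counts of 7 factors to Pou2f3 counts in each of 9 FSClow and 5 FSChi libraries; points are libraries and lines are group means. St18 is the factor without overlap between the gates, with FSChi above FSClow, and Gfi1b, Hmx2 and Hmx3 have lower means in FSChi.

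For levels between genes, which need a length-scaled unit, TPM (read numbers scaled to transcript length and library total) of the single-library files were used. In FSClow the order of mean TPM was Spib (253 ± 104, SD, n = 9), Sox9 (191 ± 57.1), Hmx3 (177 ± 47.3), Pou2f3 (107 ± 34.9), Gfi1b (73.0 ± 37.9), Ascl2 (52.9 ± 20.8), Hmx2 (39.1 ± 22.4) and St18 (38.9 ± 18.5). Hmx3 and Pou2f3 were the neighbours in this order whose means differed by more than either SD; every other pair of neighbours differed by less than the larger of its SDs. In FSChi, without the nearly empty file of library 3, Spib was again at the top (154 ± 87.1 TPM, SD, n = 4) and Hmx2 at the bottom (12.2 ± 5.17 TPM), with Sox9, Pou2f3, Hmx3, Ascl2, St18 and Gfi1b between them at means from 87.8 down to 35.8 TPM. There the neighbours set apart by more than either SD were Hmx3 (72.3 ± 19.5 TPM) and Ascl2 (47.9 ± 13.1 TPM), and Gfi1b (35.8 ± 16.2 TPM) and Hmx2. In EpCAM, Sox9 (9.08 ± 3.58 TPM, SD, n = 5) and St18 (5.93 ± 2.21 TPM) were the highest, and Gfi1b (0.0340 TPM) and Hmx3 (0.0760 TPM) the lowest.

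**Figure D4:**
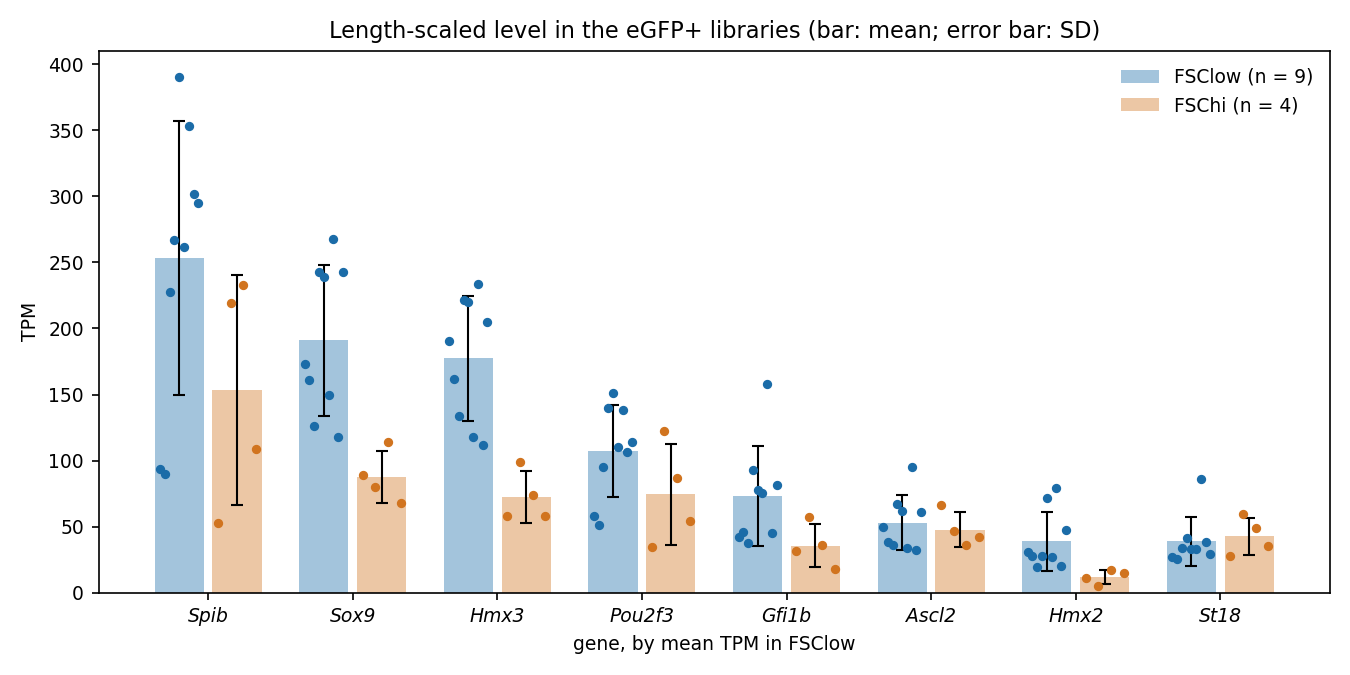
TPM of each factor in the eGFP+ gates, ordered by mean in FSClow; bars are means, error bars SD and points libraries (9 FSClow files; 4 FSChi files, without the nearly empty file of library 3). Spib, Sox9 and Hmx3 have the highest FSClow means, and the FSChi means of Hmx3, Sox9 and Hmx2 are the farthest below their FSClow means in proportion.

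Among the 9 FSClow libraries levels of Hmx3, Sox9, Gfi1b and Ascl2 were correlated. Of the 28 pairs, 7 had a Benjamini-Hochberg adjusted p under 0.05 by Pearson's r of log2 CPM and 5 of these also by Spearman's rho (two-sided exact permutation tests over pairings, adjusted over the 28 pairs). Hmx3 and Sox9 were closest, with r = 0.96 and rho = 0.97 (exact permutation p = 0.000154 and 0.000165, adjusted p = 0.00432 and 0.00463), and r = 0.93 without the 2 libraries farthest from the median of Hmx3. Gfi1b with Sox9 (r = 0.89, rho = 0.85), Gfi1b with Ascl2 (r = 0.89, rho = 0.92), Ascl2 with Sox9 (r = 0.88, rho = 0.85) and Ascl2 with Hmx3 (r = 0.88, rho = 0.85) each had adjusted exact permutation p-values of 0.0108 for r and 0.0184 to 0.034 for rho. Without the 2 farthest libraries their r was 0.88, 0.90, 0.76 and 0.67. All 4 of these factors were at their lowest in FSClow library 8.

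Over all 9 libraries Pou2f3 had r from -0.14 (Hmx3) to 0.17 (Gfi1b) with those 4 factors, none past the threshold. These low values rest on the 2 libraries farthest from the Pou2f3 median, FSClow libraries 1 and 2. Without them r was 0.74 with Gfi1b, 0.67 with Ascl2, 0.84 with Hmx3 and 0.91 with Sox9, over 7 libraries and with no test. Pou2f3 and Spib had r = 0.89 (exact permutation p = 0.00343, adjusted 0.016), but rho = 0.63 (exact permutation p = 0.076, adjusted 0.213) and r = 0.43 without the 2 farthest libraries, so that relation in CPM rests on FSClow libraries 1 and 2, where both factors were low. In log2(TPM + 1) the pair had r = 0.96 over the 9 libraries (exact permutation p = 0.000661, adjusted 0.00463). Hmx2 and Hmx3, the genomic neighbours, had r = 0.64 and rho = 0.60 (exact permutation p = 0.0625 and 0.0968, adjusted 0.172 and 0.246), and St18 had no pair past the threshold. Against library total, TMM factor and number of detected genes, none of 24 relations had an adjusted exact permutation p under 0.05. The TMM factor gave r = 0.75 with Pou2f3 and 0.78 with Spib (exact permutation p = 0.02 and 0.00849, adjusted 0.121 for both). The number of detected genes gave -0.76 with Ascl2 and -0.73 with Hmx3 (exact permutation p = 0.0184 and 0.0252, adjusted 0.121 for both). Library total gave -0.73 with Hmx2 (exact permutation p = 0.0226, adjusted 0.121), and -0.67, -0.62, -0.58 and -0.39 with Ascl2, Hmx3, Sox9 and Gfi1b. FSClow library 8, where the last 4 were lowest, had the largest FSClow total, 5439263 counts.

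**Figure D5:**
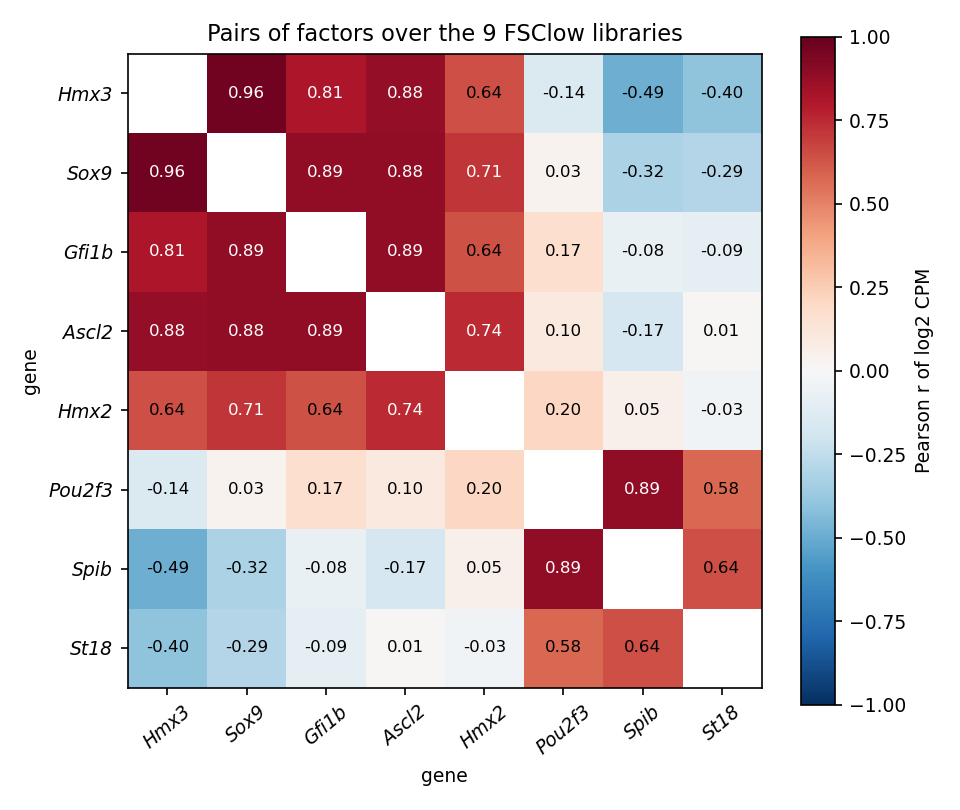
Pearson r of log2 CPM for each pair of factors over the 9 FSClow libraries, from -1 (blue) to 1 (red). Hmx3, Sox9, Gfi1b and Ascl2 form a block with r from 0.81 to 0.96, and Pou2f3 and Spib have r = 0.89 with each other.

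Most relatives of the factors were near 0 in the eGFP+ gates. Of 14 listed paralogs 13 were in the count table and 5 passed the filter; in FSClow against EpCAM 2 were called higher and 3 lower, and the same counts held in FSChi, where 1 was lower with DESeq2. Over all genes 23.1% and 12.2% were lower. Sox8, which with Sox9 and Sox10 forms the SoxE group, averaged 43.8 CPM in FSClow, 19.3 in FSChi and 1.85 in EpCAM (log2 fold changes 4.59 ± 0.40 (SE) and 3.45 ± 0.41 (SE), edgeR adjusted p = 1.89e-09 and 6.67e-07), and was lower in FSChi than FSClow (-1.14 ± 0.32 (SE), edgeR adjusted p = 0.0101), as Sox9 was. Pou2f1, the broadly expressed octamer factor, was 1.40 and 0.85 higher on the log2 scale (edgeR adjusted p = 9e-06 and 0.00957). Ascl3, a factor of ionocyte-type and microvillar cells, and the neuronal genes Myt1 and Myt1l were lower in both gates than in EpCAM. In FSChi the calls of Ascl3 and Myt1l were lost with DESeq2 (DESeq2 adjusted p = 0.189 and 0.184). Pou2f2, Spi1, Spic, Gfi1, Ascl4, Hmx1 and Sox10 averaged at most 0.582 CPM in either gate and were not tested.

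Of 15 listed partner genes, 14 were in the count table and 12 passed the filter. In FSClow 6 were called higher and 2 lower than in EpCAM, and in FSChi 3 higher and 2 lower, where 22% and 13.5% of all genes were higher and 23.1% and 12.2% lower. With RLE scaling, upper-quartile scaling or DESeq2, 5 were higher and 4 lower in FSClow, as Kdm1a and Rcor1 became lower and Tle3 was lost, and with DESeq2 3 were lower in FSChi. The list median log2 fold changes were 0.57 and 0.04. The gene 1810046K07Rik, now named Pou2af2, encodes a coactivator of Pou2f3 and averaged 336 CPM in FSClow, 286 in FSChi and 0.993 in EpCAM, with log2 fold changes of 8.31 ± 0.42 (SE) and 8.08 ± 0.43 (SE) (edgeR adjusted p = 4.11e-13 and 1.28e-12) and -0.23 ± 0.26 (SE) between the gates (edgeR adjusted p = 0.566). Pou2af1, its B cell relative, averaged 0.0398 CPM in FSClow. Of the corepressor genes through which Gfi1b acts, Hdac1 was higher by 1.62 and 1.44 on the log2 scale in the 2 gates (edgeR adjusted p = 2.85e-09 and 2.13e-07). Kdm1a was not called in either (-0.37 and -0.36, edgeR adjusted p = 0.092 and 0.215). Rcor1 was lower in FSChi (-0.98, edgeR adjusted p = 0.0486). Hdac2 went the opposite way to Hdac1 and was lower in FSClow (-1.01, edgeR adjusted p = 0.00637), where Rcor3 was higher (0.81, edgeR adjusted p = 0.00992). In FSChi neither was called (-0.70 and 0.72, edgeR adjusted p = 0.135 and 0.059). Among E proteins, the dimer partners of Ascl2, Tcf4 was higher by 1.89 in FSClow and 0.89 in FSChi on the log2 scale (edgeR adjusted p = 1.49e-08 and 0.0018). Tcf3 was not called (-0.07 and -0.46, edgeR adjusted p = 0.866 and 0.325). Tle1, a Groucho corepressor, was lower in FSClow (log2 fold change -5.06 ± 0.66 (SE), edgeR adjusted p = 9.09e-07).

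Effector genes that mark tuft cells were mostly higher than in EpCAM, and they split between the gates. Of 24 listed effectors, all tested, 20 were called higher and 1 lower in FSClow, and all 24 higher in FSChi, with median log2 fold changes of 8.11 and 8.22; these are tuft genes in cells gated by a tuft-type transgene. The effector lower in FSClow was Itpr3, at 9.54 CPM against 30.8 in EpCAM (log2 fold change -1.68), and Gnb3 averaged 4.43 against 5.06 CPM. Over all genes 22% and 13.5% were higher in the 2 gates than in EpCAM, and 23.1% and 12.2% lower. Lrmp, Sh2d6, Ltc4s and Alox5 had the smallest p-values in both, with log2 fold changes in FSClow of 8.81, 9.01, 8.76 and 8.87 (edgeR adjusted p = 6.28e-16, 2.16e-14, 1.6e-13 and 2.45e-13). In FSChi against FSClow, 6 effectors were higher and 6 lower, where 15.5% of all genes were higher and 9.3% lower. With RLE scaling Alox5ap was no longer called lower, and Itpr3 no longer higher in FSChi than EpCAM (edgeR adjusted p = 0.0511 and 0.059). The taste G protein genes Gnb3 and Gnat3 and the calcium channel gene Itpr3 were higher by 8.91 ± 0.73 (SE), 3.61 ± 0.58 (SE) and 2.79 ± 0.34 (SE) (edgeR adjusted p = 5.22e-08, 0.000108 and 1.75e-06), and the prostaglandin synthase gene Ptgs1 changed by -1.55 ± 0.23 (SE) (edgeR adjusted p = 2.16e-05). The log2 differences of the 8 factors between the gates were all smaller in size than those of Gnb3, Gnat3 and Itpr3.

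Listed transcription factors of olfactory neurons, ionocytes and ciliated cells were mostly lower in FSClow than in eGFP- epithelium, and the lists of other nasal cell types were mixed. Of the tested olfactory neuron factors 8 of 9 were lower, beside 23.1% of all genes, led by Ebf1 (-9.65 ± 0.65 (SE), edgeR adjusted p = 8.74e-11), and in FSChi 7 of 9 (5 of 9 with DESeq2), beside 12.2% of all genes, with Ebf1 at -2.25 ± 0.50 (SE) (edgeR adjusted p = 0.0019). Ionocyte factors (3 of 4 lower in FSClow, Foxi1 -6.66 ± 0.88 (SE), edgeR adjusted p = 2.2e-06) and ciliated cell factors (3 of 4 lower, 1 higher) went the same way. Of 6 basal cell factors 3 were lower, among them Trp63 (-7.51 ± 0.78 (SE), edgeR adjusted p = 6.14e-08), and 2 higher. Of 5 tested sustentacular cell factors 2 were lower and 2 higher, and of 4 tested secretory and gland factors 2 were lower and 0 higher. Exceptions that were higher in FSClow included Myb (94.1 CPM against 3.50 in EpCAM, 4.73 ± 0.35 (SE), edgeR adjusted p = 1.21e-10), listed for its role in multiciliated cell formation and also a progenitor factor. Pax6 and Sox2, both on the basal and the sustentacular list, were higher as well (1.48 ± 0.35 (SE) and 1.06 ± 0.29 (SE), edgeR adjusted p = 0.00112 and 0.00394). In FSChi against FSClow, Myb, Pax6 and Sox2 were lower (-1.79 ± 0.29 (SE), -1.31 ± 0.35 (SE) and -1.27 ± 0.30 (SE), edgeR adjusted p = 6.05e-05, 0.0069 and 0.0026), as were Gfi1b, Hmx2, Hmx3 and Sox9. Spdef, a secretory lineage factor, went the other way, at 10.9 CPM in FSClow, 41.5 in FSChi and 9.79 in EpCAM (1.92 ± 0.33 (SE) between the gates, edgeR adjusted p = 0.000138).

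The genes whose profiles over the 19 libraries were most like each factor were found among 9682 tested genes by the root mean square difference of centred log2 CPM, in log2 units, where smaller is closer; the groups of libraries drive most of this measure. For Pou2f3 they were Capn3, Rassf6 and Mcub (0.43, 0.53 and 0.56), for Spib Avil, Chat and Vav1 (0.47, 0.51 and 0.59), and for Gfi1b Il17rb, the IL-25 receptor chain, Cd79b and Rasgrf2 (0.51, 0.53 and 0.56). Hmx3 was followed by 1810046K07Rik (Pou2af2), Inpp5d and Gfi1b (0.60, 0.61 and 0.63), the only case with another of the 8 factors among the nearest 3. Hmx2 was followed by Ackr4, 3425401B19Rik and Gas7 (0.53, 0.58 and 0.61), and Sox9 by Bpgm, Adra2a and Ociad2 (0.40, 0.41 and 0.42). For Ascl2 they were Ppfia4, Chn2 and Anxa4 (0.64, 0.65 and 0.68) and for St18 Plekhg5, Ypel2 and Hap1 (0.49, 0.51 and 0.52). The nearest other factor to Pou2f3 was Gfi1b (0.70), and that to St18 was Ascl2 (0.85).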

How the data were processed

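Bulk RNA sequencing libraries of sorted nasal epithelial cells (9 FSClow, 5 FSChi, 5 EpCAM) were analysed from deposited tables. The submitters' processing notes name the mm10 build, featureCounts, DESeq2, STAR (2.4.2a), RSEM (1.2.21) and Picard (1.1073); their roles, the annotation and the strand setting are not given in the sources used here. The deposited count table holds whole reads for 27179 gene identifiers, of which 25275 were named through RefSeq (GRCm38.p6). The authors' normalized table of 26221 rows is a signal, counts divided by a size factor of each library: multiplied back, 100% of 498199 values were whole within 0.01, and edgeR on these recovered reads, an alternative added after the data were seen, called 8 of the 8 factors higher in each eGFP+ gate and 4 lower in FSChi than FSClow, among 5856, 3371 and 3265 genes called in the 3 comparisons. Per the file headers, each single-library file gives TPM and RSEM expected counts, here rounded.

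Counts were tested with edgeR 4.0.16 in R 4.3.3 (filterByExpr by group, TMM, robust quasi-likelihood F test, all 19 libraries in 1 fit, group as the only term because the labels name no batch). Adjusted p-values are Benjamini-Hochberg over 13340 genes, with calls under 0.05, and standard errors come from the F statistic. CPM use TMM factors. Sums with few counts have exact 95% counting intervals. Scripts were tested on simulated data. The 8 factors, the gene lists and the rule for named genes were chosen with earlier results of these data known; of other lists, up to 4 genes with the smallest p in a comparison, paralogs, and the first markers of each list are named, and the partner genes and exceptions named beyond these were chosen after their values were seen. Of 161 listed genes 158 were in the count table, Pou2af2 as 1810046K07Rik; the levels of some listed genes are not reported here. Alternatives were scaling, tool, filter, fit, replicate block, left-out libraries, unit, and DESeq2 1.42.0 or limma 3.58.1 (log2 of value + 1 or + 0.1).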

Additional observations from a re-analysis of the deposited data

Results flagged for a closer look

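Of 24 sets of values (8 factors in 3 groups), 2 had a library far from the others of its group, where chance flags about 1 in 20. Ascl2 reached 7.98 CPM (53 counts) in EpCAM library 5, against 2.03 CPM in the next highest EpCAM library, a gap of 0.803 of the group's range. EpCAM library 5 also had the most Pou2f3 of its group, at 5.57 CPM, and no Spib count. Gfi1b was at 0.156 CPM in EpCAM library 4 and at 0 in the other 4, so this gap is a single count.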

How the results depend on the processing

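In all, 8 factors stayed higher in FSClow than EpCAM and in FSChi than EpCAM in each left-out-library fit, and in FSChi against FSClow 4 stayed lower and 0 to 1 were called higher. St18 was the 1 factor called higher with RLE scaling, with upper-quartile scaling, with DESeq2 and with replicates 1 to 5 only and no block, and also without FSChi library 1 (0.72), FSChi library 4 (0.74) or FSClow library 7 (0.75). Leaving out 1 library gave 2295 to 3117 genes higher and 2972 to 3533 lower in FSClow against EpCAM, 1384 to 1882 and 1318 to 1858 in FSChi against EpCAM, and 1836 to 2229 and 798 to 1350 in FSChi against FSClow, the lowest without FSChi library 4 (798) and FSChi library 1 (808). Replicate numbers did not pair the libraries: deviations of same-numbered libraries correlated from -0.19 to 0.40, and 3 of 15 correlated best with their own number. With the replicate block over libraries 1 to 5, 425 genes were lower in FSChi than FSClow (489 on the same libraries with no block) and Hmx2 was not called (-1.31, edgeR adjusted p = 0.0815); the block ended no other call of the 8 factors. With no filter 5152 genes were lower in FSClow than EpCAM, and with only the compared groups in the fit 1179 were higher in FSChi than FSClow. Expected counts gave 1166 genes higher in FSChi than EpCAM, and 809 lower in FSChi than FSClow (806 without the FSChi 3 file). With log2(TPM + 1) and log2(TPM + 0.1), 1009 and 577 genes were higher in FSClow than EpCAM, 264 and 190 in FSChi than EpCAM (4 of the 8 factors with 0.1), and in FSChi against FSClow 327 and 168 were higher and 667 and 171 lower, with 2 and 0 of the factors lower; Ascl2 turned to -1.20 and -1.86 and St18 to -0.90 and -1.55. Without the nearly empty FSChi 3 file, 2611 and 2545 genes were higher in FSClow than EpCAM. In FSChi, 1137 and 1099 were then higher than in EpCAM, and 1147 and 1141 higher than in FSClow. With 0.1, 799 genes and 2 factors were then lower in FSChi than FSClow. Ascl2 was then at -0.089 and -0.090. All 8 factors were at 0 TPM in the FSChi 3 file, which enters the negative values of Ascl2 and St18 given above. Without that file, St18 averaged 42.95 TPM in FSChi (27.93 to 59.56) and 38.9 TPM in FSClow (25.84 to 86.43). The cause of the remaining differences was not tested. Keeping only libraries whose column matched its own file, 1048 genes were higher and 790 lower in FSChi than EpCAM, 1331 and 423 than FSClow, with 0 factors lower; this leaves 2 FSChi libraries. Among FSClow pairs, log2(TPM + 1) gave r = 0.61 for Gfi1b with Hmx3, past the threshold in CPM, and r = 0.83 for Ascl2 with Hmx2 and 0.84 for Hmx2 with Sox9, not past it in CPM. Over the 17 alternatives other than leaving out 1 library, St18 was called higher in FSClow than EpCAM in 16. In FSChi against EpCAM, Sox9 and St18 were called higher in 15 of the 17, and Ascl2 and Pou2f3 in 16. Gfi1b, Spib, Hmx2 and Hmx3 were called higher in both gates in all 17. Depth limits Gfi1b, Hmx2 and Hmx3 in EpCAM, with 1, 6 and 2 counts.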
